A study of Mus musculus with 6 samples.

Results

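The 10 immediate early transcription factor genes Jun, Junb, Jund, Fos, Fosl2, Egr1, Egr2, Nr4a1, Nr4a3 and Myc were followed in RNA recovered with YTHDF2 from mouse regulatory T (Treg) cells. Relative to Input, Junb RNA was 2.55-fold and Jund RNA 3.52-fold less abundant in the YTHDF2 precipitate, and the remaining 8 did not pass the test in either direction. They were chosen by Ensembl gene identifier, and all 10 were found among the 54446 gene identifiers listed in the deposited count files. All 10 also passed the filter on low counts, and the symbols were paired with the identifiers by the rule that defines the group. The series holds RNA immunoprecipitation sequencing (RIP-seq) of 3 libraries precipitated with an anti-YTHDF2 antibody (IP) and 3 Input libraries without antibody. Both groups came from wild-type Foxp3-GFP Treg cells, sorted live as CD45+CD4+GFP+ from subcutaneous B16F10 tumours, a mouse melanoma line, and the labels name no further allele or treatment. Before sorting, the tumours were digested enzymatically at 37 °C for 1 hour, so the levels below are those of dissociated and sorted cells in both groups. Input was 10% of the lysate, and the rest was incubated with antibody-coated beads for 4 hours and washed 6 times. An antibody control precipitation was not analysed here, and enrichment stands for a higher share of reads in the IP than in the Input. Nothing in the labels ties an IP to the Input of equal number, or tells whether replicates were separate animals, pools or cultures, and each p-value covers only library-to-library spread, which may be technical.

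Immediate early genes are switched on within minutes of a stimulus such as T cell receptor engagement, without new protein synthesis, and most of their mRNAs decay quickly. JUN and FOS proteins pair through leucine zippers to form the AP-1 transcription factor, EGR proteins are zinc finger factors, NR4A proteins are orphan nuclear receptors, and MYC drives cell growth. YTHDF2 is a reader of N6-methyladenosine, a mark on mRNA, and recruits the deadenylation machinery to the transcripts it holds, which shortens their life.

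Gene-assigned reads numbered 6847731 to 8465453 in the IP libraries and 10029733 to 14704617 in the Input libraries. Reads outside annotated features made up 71.2% to 72.1% of all reads in the IP and 49.6% to 51.6% in the Input. Gene identifiers with at least a read numbered 14200 to 19991 in the IP and 26250 to 33344 in the Input. The groups thus differed in make-up, which limits any comparison of shares. The 10 genes were well covered, with 113 to 9936 reads per gene and library. Together they took 0.248% ± 0.0261 (SD, n = 3) of gene-assigned IP reads and 0.274% ± 0.0538 (SD, n = 3) of Input reads, and the ranges of the groups overlapped. Of the members, 7, namely Jun, Junb, Jund, Fos, Fosl2, Nr4a1 and Nr4a3, lay above the upper quartile of mean level over the 15615 genes tested, 49.9 CPM (reads scaled to library depth). Egr1, Egr2 and Myc lay between the median of 13.5 CPM and that quartile. The identity of the sorted cells could not be checked here through Foxp3 or markers of other cell types, because the RefSeq gene table of 49997 rows pairs 0 of them with an Ensembl identifier. For the same reason the list of other immediate early, AP-1 and Myc network genes was not counted. For the level of a gene in these bulk libraries, fewer cells that express it and less RNA per cell cannot be told apart.

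The start sites of the called genes Junb and Jund, and of the NR4A pair, are shown first because they place the results on the genome. The NR4A pair was included for its ratio within a library, which had the narrowest range of IP to Input differences of the family pairs. Each window runs from 250 bases before to 50 bases after a start site that RefSeq annotates on GRCm38.p6, the assembly that the label mm10 stands for. The RefSeq spans of Nr4a1 and Nr4a3 begin further upstream, at bases 101253902 and 48045078. All of the Nr4a1 window and most of the Nr4a3 window thus lie inside the gene span. Each window is printed 5′ to 3′ on the gene's strand, with every match to a searched motif in capitals.
Junb, chr8:84978699-84978998, minus strand: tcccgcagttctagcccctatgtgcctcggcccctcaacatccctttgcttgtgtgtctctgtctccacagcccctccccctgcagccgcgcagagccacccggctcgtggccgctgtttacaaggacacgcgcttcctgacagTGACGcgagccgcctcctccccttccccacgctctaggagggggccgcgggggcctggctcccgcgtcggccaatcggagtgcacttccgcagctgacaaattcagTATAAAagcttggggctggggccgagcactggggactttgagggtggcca
Jund, chr8:70697489-70697788, plus strand: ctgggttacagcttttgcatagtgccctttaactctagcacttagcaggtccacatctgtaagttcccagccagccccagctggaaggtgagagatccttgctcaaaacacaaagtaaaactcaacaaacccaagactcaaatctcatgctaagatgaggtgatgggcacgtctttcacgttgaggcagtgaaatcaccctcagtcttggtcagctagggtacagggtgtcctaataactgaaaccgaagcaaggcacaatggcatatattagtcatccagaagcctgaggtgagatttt
Nr4a1, chr15:101266596-101266895, plus strand: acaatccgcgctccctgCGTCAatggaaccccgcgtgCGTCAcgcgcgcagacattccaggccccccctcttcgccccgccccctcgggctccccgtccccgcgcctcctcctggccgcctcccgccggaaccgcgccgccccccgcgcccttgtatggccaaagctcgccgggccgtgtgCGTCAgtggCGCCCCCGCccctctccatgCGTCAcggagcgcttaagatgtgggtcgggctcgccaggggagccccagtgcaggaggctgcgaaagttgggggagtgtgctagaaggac
Nr4a3, chr4:48045055-48045354, plus strand: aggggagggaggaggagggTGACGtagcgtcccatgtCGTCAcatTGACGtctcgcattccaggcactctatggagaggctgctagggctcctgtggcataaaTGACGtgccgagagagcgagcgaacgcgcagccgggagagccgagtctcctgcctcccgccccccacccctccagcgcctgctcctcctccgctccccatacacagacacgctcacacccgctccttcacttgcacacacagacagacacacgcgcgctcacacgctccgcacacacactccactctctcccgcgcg
The motifs were searched on both strands and were the AP-1 site TGANTCA, the cAMP response element TGACGTCA and its shorter core TGACG, the EGR site GCGNGGGCG, the NR4A site AAAGGTCA, the E-box CACGTG, the TATA motif TATAAA and the CArG box, which serum response factor binds. A TGACGTCA match always holds TGACG as well. Windows of 8 members were searched, 12 windows in all, since Egr2 has 5. Egr1 was left out of the search and no window was found for Myc, so the member counts cover neither. A member counts if any of its windows matches, so member counts and shares of windows are unlike measures. Several Egr2 windows overlap and repeat the same matches. TGACG was found in 5 of these 8 members, namely Junb, Fos, Egr2, Nr4a1 and Nr4a3. That was 7 of the 12 member windows, beside 20.8% of all 32851 windows. Nr4a1 and Nr4a3 held 4 matches each. The TATA motif was found in Junb and Fos, 2 of the 12 windows, beside 13.6% of all windows. The CArG box was found only in Egr2, in 4 of the 12 windows, beside 1.63%. The EGR site was found in Fosl2 and Nr4a1, 2 of the 12 windows, beside 5.55%. The E-box was found in Egr2, in 1 of the 12 windows, beside 7.15%. TGACGTCA, TGANTCA and AAAGGTCA, held by 1.79%, 7.81% and 1.51% of windows, were found in 0 of the 12 member windows. Jund and Jun held none of the letters searched. These matches are descriptions of the windows and not binding sites, and the RIP-seq measures RNA, not promoter activity.

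Of the members, 2, Junb and Jund, were depleted from the IP in edgeR's quasi-likelihood test with Benjamini-Hochberg adjustment over all genes, and none was enriched. Depletion was called for 6.11% of all tested genes and enrichment for 4.33%. Calls in either direction made up 10.4%, beside 2 of 10 members. Among genes above the upper quartile of level, to which Junb and Jund belong, 16.9% were depleted and 14.7% enriched, beside 2 and 0 of the 7 members there. Between the median and that quartile the shares were 5.3% and 2.54%, beside 0 of the 3 members there. At an unadjusted p under 0.05, 4 members lay lower and 2 higher in the IP, beside 13.9% and 10.0% of all tested genes. DESeq2 called 4 members depleted and 0 enriched, beside 10.0% and 6.63% of the 20847 genes to which it gave an adjusted p. With limma voom, 3 were depleted and 1 enriched, beside 11.0% and 5.62% of the genes tested. The median log2 fold change of the 10 members was -0.09, beside -0.12 over all tested genes, with 5 members above 0 and 5 below. The members ranged from -1.82 for Jund to 0.75 for Fosl2. Enriched genes made up 41.5% of all calls with TMM scaling, 57.4% with upper-quartile factors, 51.8% with total counts and 7.55% when library sizes included reads outside genes. Of the members, the direction of Jun and Fos turned with the last of these scalings, and that of the other 8 kept its sign under every scaling tried.

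**Figure D1:**
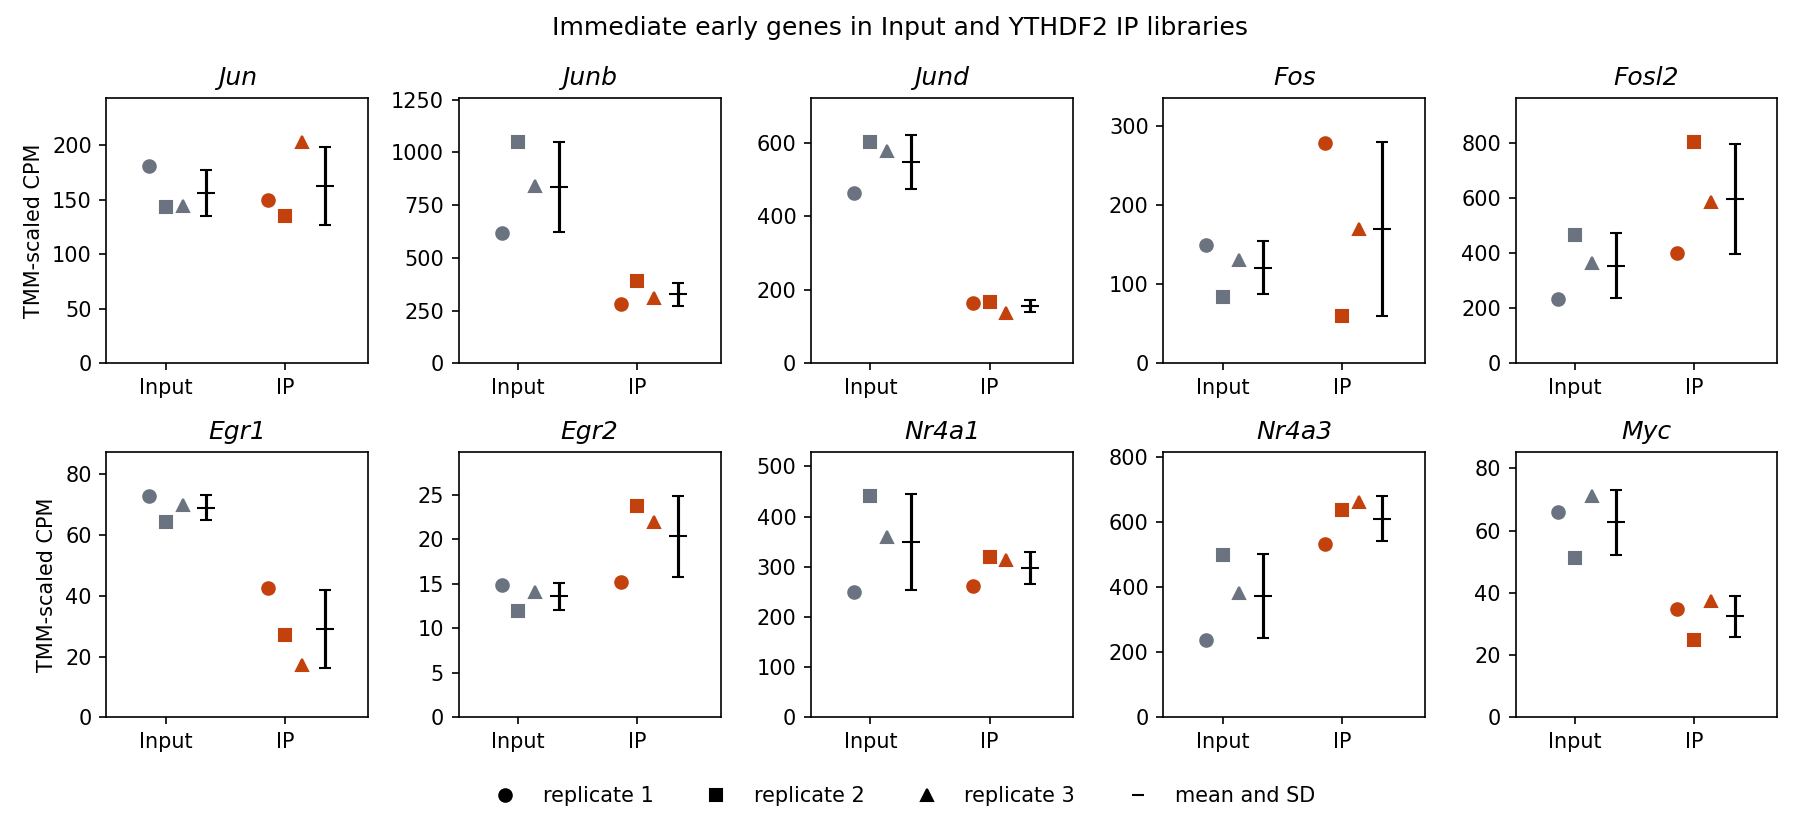
TMM-scaled CPM of each gene (vertical axes, linear and starting at 0) in the 3 Input and 3 IP libraries, with marker shapes for the replicate numbers and black bars for the mean and SD. For Junb, Jund, Egr1 and Myc all IP points lie under all Input points, and for Egr2 and Nr4a3 they lie over them. Of all tested genes, 23.7% were separated in the first way and 12.8% in the second.

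The JUN family divided into a pair of depleted genes and one near the middle. Jund (ENSMUSG00000071076.6; chr8:70697739-70700616 on GRCm38.p6) encodes a JUN protein that many cell types express without stimulation. It had 165, 166 and 136 CPM in IP replicates 1 to 3 and 464, 601 and 577 CPM in Input replicates 1 to 3. The groups were far apart. The highest IP library lay below the lowest Input library, as for 27.9% of genes above the upper quartile of level. Jund was 3.52-fold lower in the IP (95% interval 2.71 to 4.58), or -1.82 ± 0.17 (SE) on the log2 scale, at an adjusted p of 0.000199. A lower log2 fold change was found for 14.1% of all tested genes and for 8.32% of those above the upper quartile of level.

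Junb (ENSMUSG00000052837.6; chr8:84976909-84978748) encodes a JUN protein that pairs with BATF and FOS proteins in activated T cells. Its level was 283, 390.4 and 309 CPM in the IP libraries and 620.0, 1048 and 839.8 CPM in the Input libraries, in the order of replicates. Here too no IP library reached an Input library, as for 27.9% of genes above the upper quartile of level, although Input replicate 1 lay well below the other Input libraries. Junb was 2.55-fold lower in the IP (95% interval 1.84 to 3.55), or -1.35 ± 0.21 (SE) on the log2 scale, at an adjusted p of 0.00384. The calls of Junb and Jund were kept in all 15 alternatives of scaling, filter, tool, replicate block and left-out library.

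Jun (ENSMUSG00000052684.4; chr4:95049036-95052222), the founding member of the family and the usual partner of FOS, had 149.7, 135 and 203 CPM in the IP and 180.4, 143 and 144 CPM in the Input. The groups overlapped, with IP replicate 3 the highest of all libraries. Its log2 fold change was 0.06 with a 95% interval of -0.42 to 0.54, and its adjusted p was 0.923. The sign was negative in 5 of the 15 alternatives, so no direction is given for Jun. A change larger than 1.45-fold upward or below 0.747-fold lies outside the interval, which holds for the main scaling only. With library sizes from all reads the estimate was -0.47, below that interval.

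Neither FOS gene passed the test. Fos (ENSMUSG00000021250.13; chr12:85473890-85477274) encodes the classical AP-1 partner of JUN and is among the most rapidly induced genes known. It had 279, 59.7 and 170.3 CPM in the IP libraries and 149, 83.5 and 130.1 CPM in the Input libraries. The IP libraries spread 4.67-fold from lowest to highest, the widest range of the 10 members, and enclosed every Input library. Replicate 2 was the lowest and replicate 1 the highest library in both groups. The estimate on the log2 scale was 0.49 ± 0.46 (SE), and the adjusted p 0.632. Without IP replicate 1 it was -0.12, so the sign rested on that library.

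Fosl2 (ENSMUSG00000029135.10; chr5:32136472-32157840) encodes FRA-2, a FOS-related protein that also pairs with JUN proteins. It had 403, 803 and 586 CPM in the IP and 232, 467 and 366 CPM in the Input. The groups overlapped, since IP replicate 1 lay below Input replicate 2. Between libraries of equal number, which no label pairs, IP over Input on the log2 scale was 0.79, 0.78 and 0.68. The estimate was 1.68-fold higher in the IP (95% interval 1.06 to 2.66), with an unadjusted p of 0.0308 and an adjusted p of 0.151. It was called in 2 of the 15 alternatives, with a replicate block at an adjusted p of 0.00128 and with no count filter at 0.00316. The range over the 15 alternatives was 0.00128 to 0.687. The Fosl2 estimate was the highest of the members, and 77.8% of tested genes had a lower log2 fold change.

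**Figure D2:**
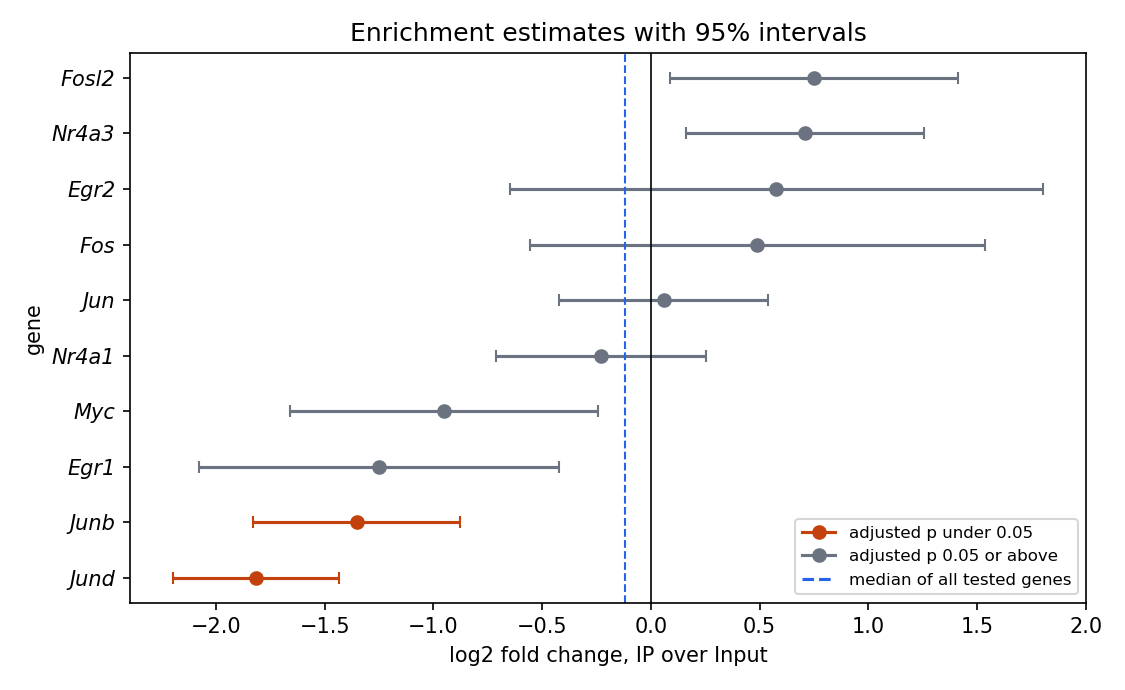
Log2 fold change of IP over Input (horizontal axis) for each gene (vertical axis), with 95% intervals from edgeR's fit, and the median of all tested genes as a dashed line at -0.12. The intervals of Junb, Jund, Egr1 and Myc lie below 0 and those of Fosl2 and Nr4a3 above it, and only Junb and Jund pass the adjusted threshold.

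The estimates of the EGR genes had opposite signs, neither gene was called, and the interval of Egr2 took in both directions. Egr1 (ENSMUSG00000038418.7) encodes a zinc finger factor induced through serum response factor and MAP kinase signalling. Its level was 42.7, 27.0 and 17.3 CPM in the IP and 72.8, 64.5 and 70.0 CPM in the Input. Every IP library lay below every Input library, which was found for 23.7% of all tested genes and for 28.4% of those with a mean of 13.5 to 49.9 CPM. The Input libraries were close together, with a coefficient of variation of 6.14%, and the IP libraries were not, at 44.2%. The estimate was 2.38-fold lower in the IP (95% interval 1.34 to 4.23), with an unadjusted p of 0.00755 and an adjusted p of 0.0629. DESeq2 gave an adjusted p of 0.0159, limma voom 0.0268 and a replicate block 0.0304. Over the 15 alternatives the adjusted p ranged from 0.0103 to 0.172, with 7 below the threshold. Leaving out IP replicate 1 or IP replicate 3 brought it to 0.0320 and 0.0434.

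Egr2 (ENSMUSG00000037868.15; chr10:67534469-67542188), an EGR factor linked to T cell anergy and restraint, had the fewest reads of the members. It had 15.2, 23.8 and 22.0 CPM in the IP and 14.9, 11.9 and 14.1 CPM in the Input. The IP libraries all lay above the Input libraries, by a narrow margin for IP replicate 1. Such a separation was found for 12.8% of all tested genes and 12.1% of those with a mean of 13.5 to 49.9 CPM. The estimate on the log2 scale was 0.58 ± 0.55 (SE) at an adjusted p of 0.631, and its interval ran from 0.638-fold to 3.48-fold. RefSeq places 1712 bases of the Egr2 span in the long noncoding RNA gene Gm32255. The strand setting of the counting is not given in the sources used here, so reads of this stretch cannot be told apart.

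Neither NR4A gene was called, and the IP and Input libraries overlapped for Nr4a1 but not for Nr4a3. Nr4a3 (ENSMUSG00000028341.9; chr4:48045078-48086447) and Nr4a1 (ENSMUSG00000023034.7; chr15:101253902-101274795) encode nuclear receptors induced by T cell receptor signalling, with overlapping roles in Treg development. Nr4a3 had 533, 637 and 664 CPM in the IP and 239.6, 499 and 383 CPM in the Input. All IP libraries lay above all Input libraries, as for 28.5% of genes above the upper quartile of level, with the smallest gap between IP replicate 1 and Input replicate 2. The estimate was 1.64-fold higher in the IP (95% interval 1.12 to 2.39), with an unadjusted p of 0.0163 and an adjusted p of 0.0982. The adjusted p was 0.0257 in limma voom, 0.0470 with upper-quartile factors and 0.00581 with no count filter. Over the 15 alternatives it ranged from 0.00353, with a replicate block, to 0.679.

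Nr4a1 had 261, 320.1 and 313 CPM in the IP and 249, 441 and 359.8 CPM in the Input. The IP libraries lay inside the range of the Input libraries. Its estimate was -0.23 ± 0.21 (SE) on the log2 scale, with an interval from 0.611-fold to 1.19-fold and an adjusted p of 0.624. With library sizes from all reads it was called depleted, at a log2 fold change of -0.75 and an adjusted p of 0.0424. That scaling moved the median of all tested genes to -0.65, so relative to the other genes Nr4a1 stayed near the middle.

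Myc (ENSMUSG00000022346.15), which encodes the growth-promoting factor c-MYC, had 34.9, 24.8 and 37.5 CPM in the IP and 66.0, 51.1 and 71.0 CPM in the Input. No IP library reached the lowest Input library, as for 28.4% of genes with a mean of 13.5 to 49.9 CPM. The estimate was 1.93-fold lower in the IP (95% interval 1.18 to 3.16), with an unadjusted p of 0.0136 and an adjusted p of 0.0878. DESeq2 called it, at an adjusted p of 0.0450, and limma voom did not. Leaving out IP replicate 3 gave an adjusted p of 0.0364, and the range over the 15 alternatives was 0.0138 to 0.309.

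Within a group, libraries 1 and 2 often held opposite ends of a member's range. Of the Input libraries, replicate 1 was the lowest and replicate 2 the highest for Junb, Jund, Fosl2, Nr4a1 and Nr4a3, whereas replicate 1 was the highest and replicate 2 the lowest for Jun, Fos, Egr1 and Egr2. Of the IP libraries, replicate 1 was the lowest for Junb, Fosl2, Egr2, Nr4a1 and Nr4a3, and replicate 2 the highest for Junb, Jund, Fosl2, Egr2 and Nr4a1. Lowest and highest both had the same numbers in IP and Input for Junb, Fos, Fosl2, Nr4a1 and Myc. Only the lowest or only the highest did for Jun, Jund, Egr1 and Nr4a3, and for Egr2 the ends were reversed. The IP coefficient of variation exceeded that of the Input for 6 of the 10 members, with medians of 21.2% and 21.1%. Over all genes above the upper quartile of level the medians were 24.2% and 11.6%.

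The ratio of 2 related genes within a library does not depend on how libraries are scaled against each other. It was computed for the 6 pairs of the JUN, FOS, EGR and NR4A families, as log2 of the read counts with 0.5 added. The groups did not overlap for 4 pairs, of which 2 contain a called gene, Junb or Jund. No share over other gene pairs was computed, so the count describes these pairs only. For each of these 4 the two-sided exact permutation p was 0.1, the smallest that 3 against 3 libraries allow, and 0.15 after Benjamini-Hochberg adjustment over the 6 pairs, so no pair could pass the threshold.

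Nr4a1 over Nr4a3 had the narrowest range of differences of the 6 pairs. The log2 ratio was -1.03, -0.99 and -1.08 in the IP libraries and 0.06, -0.18 and -0.09 in the Input libraries. The ratio in the IP was on average 0.513 times that in the Input, with no overlap between the groups. The difference was -0.96, with a range from -1.14 to -0.81 over the 9 pairings of an IP with an Input library.

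Jun over Jund differed by 1.86 on the log2 scale, with Input libraries at -1.81 ± 0.39 (SD, n = 3) and IP libraries at 0.05 ± 0.46 (SD, n = 3). Jun over Junb differed by 1.38, with Input at -2.40 ± 0.56 (SD, n = 3) and IP at -1.02 ± 0.47 (SD, n = 3). Each ratio was higher in all IP than in all Input libraries, by 3.63-fold on average for Jund and 2.60-fold for Junb. Junb over Jund differed by 0.48, with groups that overlapped slightly, an exact permutation p of 0.2 and an adjusted 0.24.

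Egr1 over Egr2 was 2.29, 2.43 and 2.31 in the Input and 1.49, 0.18 and -0.34 in the IP. The Input libraries lay within a narrow band and each IP library lay lower, but by very different amounts, with a mean difference of -1.90. Fos over Fosl2 overlapped widely, with IP libraries at -2.02 ± 1.62 (SD, n = 3), Input libraries at -1.54 ± 0.92 (SD, n = 3) and an exact permutation p of 0.7. Replicate 2 had the lowest ratio of Fos to Fosl2 in both groups, and without IP replicate 2 the difference turned from -0.48 to 0.38.

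**Figure D3:**
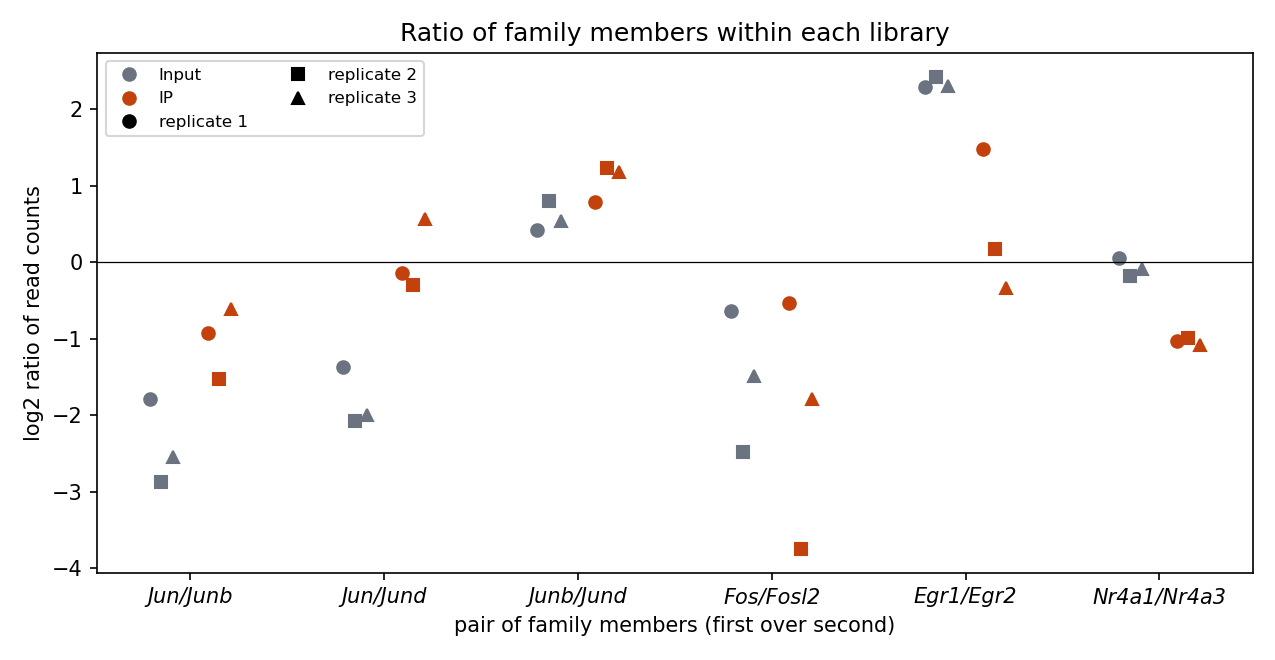
Log2 ratio of read counts of 2 related genes (vertical axis) within each Input and IP library, for the 6 pairs on the horizontal axis, with marker shapes for replicate numbers. The Nr4a1/Nr4a3 ratio lies at -1.08 to -0.99 in the IP and at -0.18 to 0.06 in the Input, and the Fos/Fosl2 ratios overlap.

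The members also differed in genomic extent, which the choice of genes did not use. The span of the gene in the RefSeq table was 1840 bases for Junb, 2878 for Jund, 3187 for Jun, 3385 for Fos, 3750 for Egr1, 5021 for Myc, 7720 for Egr2, 20894 for Nr4a1, 21369 for Fosl2 and 41370 for Nr4a3. The genes with the shortest spans, Junb and Jund, were the depleted ones, and those with the longest, Fosl2 and Nr4a3, had the highest estimates. The middle of the list departed from this order. Egr1 and Myc, at -1.25 and -0.95, have longer spans than Jun and Fos, at 0.06 and 0.49. Nr4a1, with a span close to that of Fosl2, also departed from it with its estimate of -0.23. The Nr4a1 span starts at base 101253902, before the window shown for its start site, chr15:101266596-101266895. Its closeness to the span of Fosl2 therefore depends on the annotated start used. Spearman's rho between span and log2 fold change was 0.76 over the 10 genes, which share the same 6 libraries. It is a description of a few genes and not of transcripts, since the span includes introns, and no value over all genes could be set beside it without a table that pairs identifiers with spans. Between mean level and log2 fold change rho was -0.02.

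**Figure D4:**
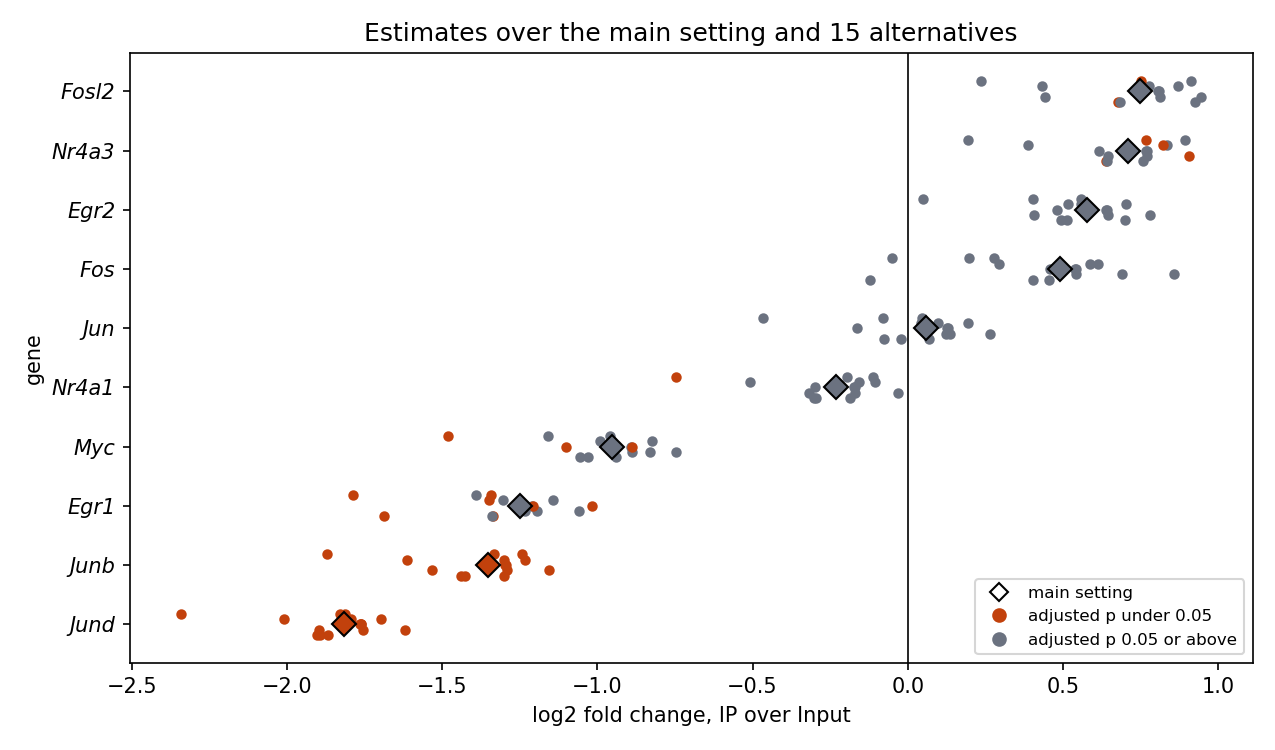
Log2 fold change of IP over Input (horizontal axis) for each gene (vertical axis) in the main setting (diamonds) and the 15 alternatives (circles, spread vertically for legibility), coloured by the adjusted threshold. Junb and Jund are past it in every setting, and the points of Jun and Fos fall on both sides of 0.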

How the data were processed

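The authors deposited raw read counts per Ensembl gene, with 1 library in each file. Trimmomatic 0.39, HISAT2 2.1.0, HTSeq and DESeq2 were used with build mm10, per the submitters' processing notes. Per the labels' protocols, a kit that marks strand was used; for the strand of counting, the annotation release and the treatment of duplicates, nothing was given in the sources used here. Left out were the 5 HTSeq summary categories and 92 spike-in identifiers. The whole table was tested with edgeR 4.0.16 in R 4.3.3 (filterByExpr, TMM, robust quasi-likelihood F-test, group as the only term, two-sided), with calls at an adjusted p under 0.05. Standard errors came from the F statistics and 95% intervals from the fit's degrees of freedom. CPM used TMM-scaled library sizes. Intervals rest on 3 libraries a group and on the main scaling. With library sizes from all reads, the estimates of Jun, Junb, Jund and Nr4a1 lay below their intervals. Alternatives were other scalings and filters, DESeq2 1.42.0, limma voom 3.58.1, a replicate block and each library left out. Family ratios used exact permutation tests. All 10 members are named by rule, and the members and lists were chosen with earlier results of these data known. Symbols were matched to RefSeq by name, 10 of 10.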

Additional observations from a re-analysis of the deposited data

How the results depend on the processing

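The alternatives left Junb and Jund called depleted in all 15, with log2 fold changes from -1.87 to -1.16 and from -2.34 to -1.62. The number of members called, 2 in the main setting, was 5 with library sizes from all reads (5 depleted), 5 with no count filter (2 enriched), 4 with DESeq2 (4 depleted), 4 with limma voom (1 enriched) and 5 with a replicate block (2 enriched, Fosl2 and Nr4a3). Upper-quartile factors gave 1 enriched member. Leaving out 1 library gave 2 to 4 called members, 0 enriched and 2 to 4 depleted. The 4 were found without IP replicate 3, where 2660 of 19027 tested genes were called. The median log2 fold change of the members was -0.61 in place of -0.09 with library sizes from all reads, where that of all tested genes was -0.65. Against the main setting, the median of all tested genes moved by 0.20 (upper-quartile factors), 0.12 (total counts) and -0.53 (library sizes from all reads). Calls over all genes numbered 1630 of 15615 in the main setting, 3467 of 20847 with DESeq2 and 2592 of 15615 with limma voom. With 1 library left out they ran from 751 of 17263, without Input replicate 3, to the 2660 without IP replicate 3. Of 15615 genes, library sizes from all reads gave 160 enriched and 1958 depleted, and a replicate block 833 and 1095. Upper-quartile factors gave 1081 enriched and 801 depleted genes of 15615. With no count filter, 729 genes were enriched and 1319 depleted of 40072. Jun turned to -0.47 with library sizes from all reads, to -0.022 with no count filter, and to -0.16, -0.08 and -0.08 without IP replicate 3, Input replicate 2 and Input replicate 3, over a range of -0.16 to 0.14 with 1 library left out. Fos turned to -0.051 with library sizes from all reads and to -0.12 without IP replicate 1, the lowest of a range that reached 0.86. The Fos/Fosl2 difference of -0.48 turned to 0.38 without IP replicate 2, in a range from -1.23 upwards, and the other pairs kept their direction with 1 or 0.1 added, with each library left out and within replicate numbers. What causes these shifts was not tested. The main fit had no replicate block because no label pairs the libraries, although the protocol took Input as 10% of the lysate. Between an IP library and its equally numbered Input, deviations had a correlation of 0.0999 (replicate 1), 0.026 (replicate 2) and 0.0242 (replicate 3). These values are low, yet each library matched its own number best, so they do not settle whether the numbers mark pairs. With the replicate block the adjusted p was 0.00128 for Fosl2, 0.00353 for Nr4a3 and 0.0304 for Egr1. Whether these genes pass edgeR's test with the main scaling and filter thus depends on that unknown pairing. Between libraries of equal number, IP over Input on the log2 scale was 0.79, 0.78 and 0.68 for Fosl2 and 1.15, 0.35 and 0.79 for Nr4a3. The lowest count of a member in a library was 113 reads, and every estimate rests on 3 libraries a group.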
